A study of Mus musculus with 6 samples.

Results

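The colony-stimulating factor 1 receptor and its ligands form a set of 3 genes: Csf1r (ENSMUSG00000024621), which encodes the receptor tyrosine kinase, and Csf1 (ENSMUSG00000014599) and Il34 (ENSMUSG00000031750), which encode its ligands. They were taken by gene symbol from the 32285 genes of the count matrices. Csf1r lies on chromosome 18 from 61100598 to 61132149 on the plus strand, and its interval also holds the microRNA gene Mir6983 on the same strand and part of Hmgxb3 on the opposite strand (mm10, GENCODE M21). Csf1 lies on chromosome 3 from 107741048 to 107760469 on the minus strand and overlaps no other annotated gene. Il34 lies on chromosome 8 from 110741829 to 110805924 on the minus strand, across from Gm15894 and Gm15895 on the opposite strand.

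CSF1R is the receptor on which brain microglia and border macrophages depend for survival and proliferation. Ligand binding causes the receptor to dimerise and phosphorylate itself, and signalling then runs through SRC-family kinases, PI3-kinase, the MAP kinases and phospholipase C-gamma 2. CSF1 and IL-34 bind the same receptor but are made by different cells: in the healthy brain CSF1 is ascribed mainly to glia and IL-34 to neurons, and in the skin IL-34 from keratinocytes maintains Langerhans cells.

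The study sorted NeuN-negative nuclei, that is nuclei depleted of neurons, from the cortex of mice aged 7.5 months and sequenced them by droplet single-nucleus RNA-seq (10x Genomics 3' version 3 chemistry). There were 3 groups of 2 libraries each, and all carried the 5xFAD transgenes, which are driven by the neuronal Thy1 promoter and give early amyloid plaques. One group was 5xFAD alone, the second (5xFAD;M28L in the labels, written 5xFAD-M28L here) also carried the M28L variant of phospholipase C-gamma 2, the enzyme encoded by Plcg2, and the third (5xFAD-P522R) carried its P522R variant in the same way. No group without the 5xFAD transgenes was analysed here, so each contrast compares amyloid-bearing mice. In each library nuclei from males and females were pooled, with 5000 nuclei of each sex targeted out of 50000 sorted. The libraries are numbered replicate 2 and replicate 3 in each group. Whether the replicates were separate animals is not stated, so the p-values measure the spread between these libraries, which may be in part technical.

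The libraries held 9269 to 13783 nuclei and 53326947 to 72288942 unique molecular identifiers (UMIs, one per captured RNA molecule), with medians of 3842 to 4972 UMIs per nucleus. After filtering and removal of called doublets 60085 nuclei remained, of which 51991 lay in clusters whose marker genes allowed 1 of 13 cell type names. The names are shorthand for nuclei like that type, and neither the 3 genes nor mitochondrial genes were used to build the clusters. The remaining nuclei lay in 7 clusters left unnamed, the largest of which (cluster 4, 5607 nuclei) carried 11 of 12 oligodendrocyte markers. Enpp6, a gene of newly forming oligodendrocytes, was among its leading genes, after A530053G22Rik, A330072L02Rik and Gm32122. Enpp6 was listed as a marker of committed oligodendrocyte precursors. No oligodendrocyte marker was among the leading genes, so the naming rule left the cluster unnamed. Whether the nuclei of cluster 4 are newly formed was not tested. Although the tissue is labelled cortex, 510 nuclei carried markers of striatal neurons and 93 those of olfactory ensheathing glia. Between 20 and 71 barcode sequences were shared by any pair of libraries. Levels are given as CPM, the UMIs of a gene in all nuclei of a type in a library scaled to a common total, and each range is over the 6 libraries. Because clusters are built from the same nuclei, levels between types and states are described with no test.

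Csf1r was a gene of the myeloid nuclei. In microglia (8460 nuclei) it stood at 741.3 and 661.5 CPM in 5xFAD replicates 2 and 3, at 805.3 and 805.5 CPM in 5xFAD-M28L, and at 662 and 554.7 CPM in 5xFAD-P522R, a mean of 705 ± 97.8 CPM (SD, n = 6). In border macrophages (410 nuclei), the macrophages of the meninges and vessel walls, it was 509.6 and 572.5 CPM in 5xFAD, 576.4 and 494.5 CPM in 5xFAD-M28L, and 553.6 and 475.6 CPM in 5xFAD-P522R, a mean of 530 ± 42.8 CPM (SD, n = 6). Microglia had the higher level in 6 of 6 libraries, although the ranges of the 2 types overlapped. All 10 T cell markers were detected in the border macrophage cluster. They summed to 365.3 to 1088 CPM there over the libraries, against 0.9028 to 3.007 CPM in microglia. Oligodendrocyte markers summed to 1276 to 5151 CPM in the same cluster. No cluster was named as T cells, and the part of such transcripts in the lower Csf1r of border macrophages was not tested. At least 1 Csf1r UMI was found in 87.1% of microglial nuclei and 70.7% of border macrophage nuclei, at median depths of 3560 and 3326 UMIs. Oligodendrocytes, which should lack the receptor, had one in 1.78% of nuclei at a median of 3824 UMIs. With every nucleus thinned to 1500 UMIs these shares were 63.1%, 48.7% and 0.707%, after 130, 9 and 268 shallower nuclei were left out.

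In the named types outside the myeloid nuclei Csf1r was low. Pericytes and smooth muscle had a mean of 25.2 CPM, from 2.57 to 118 CPM over the libraries and resting on 28 UMIs in 499 nuclei. Of these UMIs 17 came from the 35 nuclei of 5xFAD-P522R replicate 3. Microglial markers in this type summed to 714.8 CPM in that library and to 92.74 to 118.3 CPM in the others. Their part in the Csf1r level was not tested. Endothelial nuclei had a mean of 15.4 CPM, fibroblasts 10.6, inhibitory neurons 9.93, striatal-type neurons 6.46, excitatory neurons 4.68, oligodendrocytes 4.53, astrocytes 3.93 and oligodendrocyte precursors (OPCs) 2.75 CPM. Of all Csf1r UMIs, microglia held 82.9% to 91.5% in each library from 9.73% to 19.6% of its nuclei. Border macrophages held 1.79% to 6.23%.

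**Figure D1:**
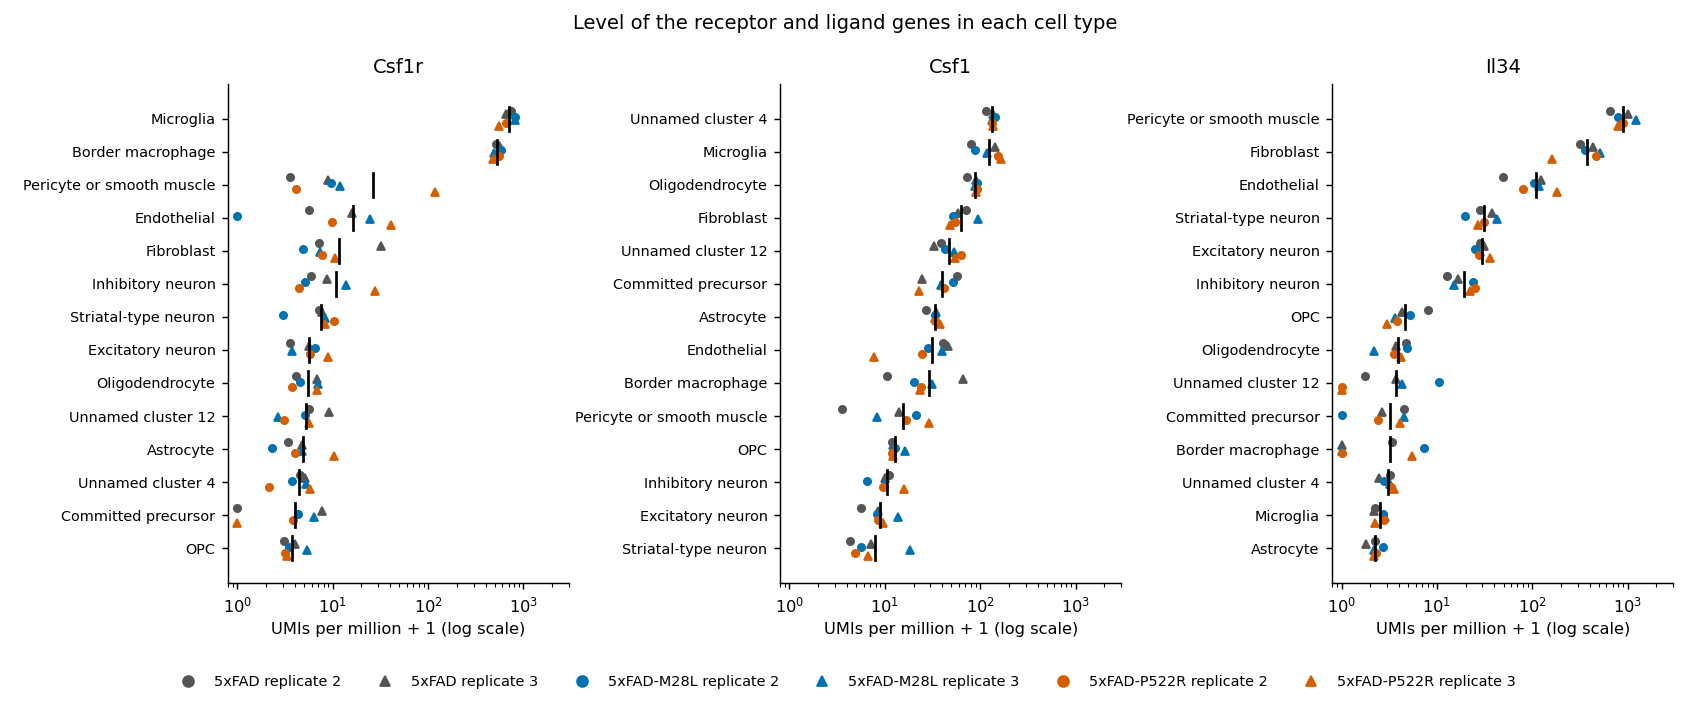
Level of Csf1r, Csf1 and Il34 in each cell type, in CPM on a log axis; each point is 1 library, colours give the genotype group and black bars the mean of the 6 libraries (olfactory ensheathing nuclei are left out). Csf1r is highest in microglia (mean 705 CPM) and border macrophages (530 CPM), Csf1 in oligodendrocyte-lineage cluster 4 (132 CPM) and microglia (123 CPM), and Il34 in pericytes and smooth muscle (891 CPM).

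Within microglia the receptor varied with the cells' state. Sub-clustering gave a homeostatic state (2531 nuclei), a state led by chemokine genes (2246), a disease-associated state of the kind found around plaques (1082), an interferon-responsive state (617) and a small dividing state (39), and left 2 clusters unnamed: cluster 2 (1402 nuclei) and cluster 5 (543 nuclei, which carried oligodendrocyte transcripts and had a median of 7559 UMIs). Csf1r was highest in homeostatic microglia, at a mean of 954 CPM (range 854 to 1004). It was 861 CPM (809 to 885) in unnamed cluster 2 and 833 CPM (729 to 896) in the interferon-responsive state, and these ranges overlapped each other. Chemokine microglia followed at 615 CPM (565 to 699), below the range of the interferon-responsive state, then disease-associated microglia at 448 CPM (376 to 600) and unnamed cluster 5 at 374 CPM (325 to 518), whose ranges overlapped.

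**Figure D2:**
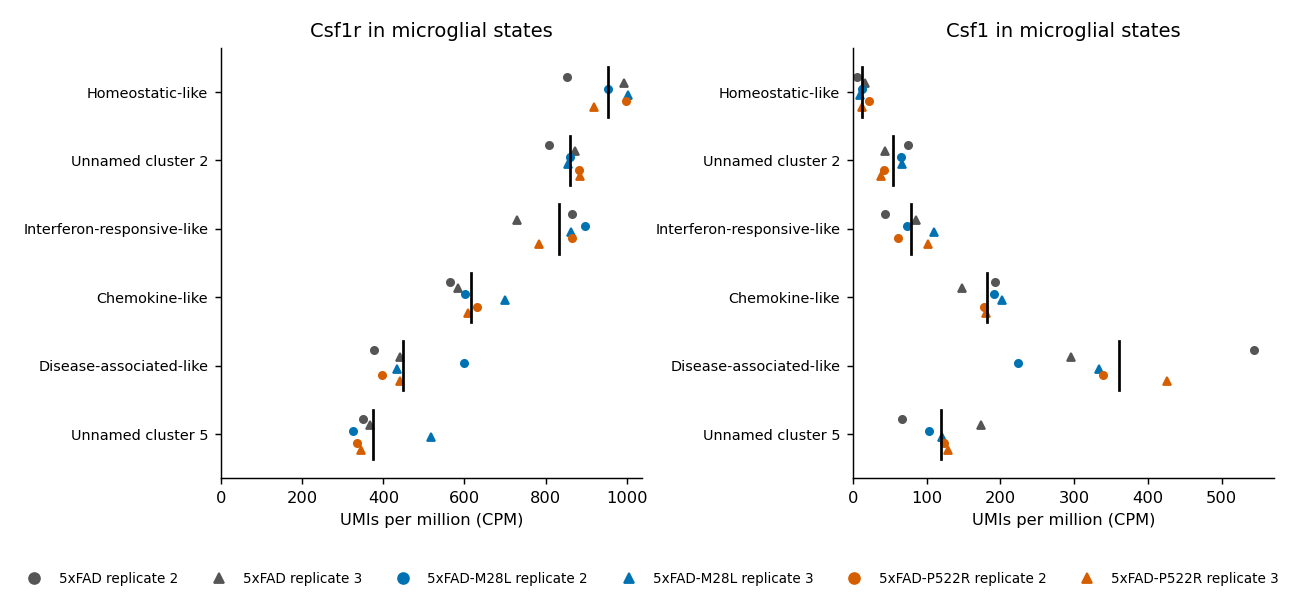
Level of Csf1r and Csf1 in each microglial state, in CPM; each point is 1 library, colours give the genotype group and black bars the mean of the 6 libraries. The receptor runs from 954 CPM in homeostatic to 448 CPM in disease-associated microglia, and between the same states the ligand goes from 13.02 to 361 CPM.

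Csf1r in microglia did not pass the test in any contrast of the genotypes. Normalised to the libraries' effective sizes, it was 735 and 655 CPM in 5xFAD, 810 and 826 CPM in 5xFAD-M28L and 643 and 575 CPM in 5xFAD-P522R. Both 5xFAD-M28L libraries were thus the highest and both 5xFAD-P522R libraries the lowest, and no pair of groups overlapped. The share of all genes that separate in this way was not taken. With 2 libraries a group, separation alone therefore does not set a gene apart, here or in the comparisons below. In such sums over all microglia, fewer nuclei of a state and less RNA per nucleus cannot be told apart. Against 5xFAD the log2 difference was 0.24 (SE 0.10) for 5xFAD-M28L and -0.19 (SE 0.10) for 5xFAD-P522R, with adjusted p = 0.899 and 0.520 (edgeR quasi-likelihood test, Benjamini-Hochberg). Between 5xFAD-P522R and 5xFAD-M28L it was -0.43 (SE 0.10), with edgeR adjusted p = 0.173. In each of the 3 contrasts edgeR called 0 of 13849 genes (0%), with 695, 1566 and 1916 genes at an unadjusted p under 0.05, while DESeq2 called 4, 54 and 280. DESeq2 gave Csf1r an adjusted p of 0.123 for 5xFAD-P522R against 5xFAD-M28L. With no filter on low counts edgeR's adjusted p for that difference was 0.00294, and the same setting called 1255 of 22451 genes.

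Csf1r did not pass the test inside any of the states either. Between 5xFAD-P522R and 5xFAD-M28L the log2 difference of Csf1r was -0.06 in homeostatic microglia (edgeR adjusted p = 0.956, 0.0187% of genes called), -0.11 in chemokine microglia (adjusted p = 0.881, 0.462% called) and -0.29 in disease-associated microglia (adjusted p = 0.615, 0.365% called). The last was -0.08 without 5xFAD-M28L replicate 2 and -0.51 without 5xFAD-M28L replicate 3. It was -0.13 in the interferon-responsive state (edgeR adjusted p = 0.953, 0.0569% called) and 0.02 in unnamed cluster 2 (adjusted p = 0.998, 0.0113% called). In homeostatic microglia the normalised level was 860 and 1005 CPM in 5xFAD, 976 and 1031 in 5xFAD-M28L and 997 and 926 in 5xFAD-P522R, so that the groups overlapped.

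The mix of states differed among the libraries. The homeostatic share of microglia was 61.1% and 21.4% in 5xFAD, 32.7% and 27.98% in 5xFAD-M28L and 23.2% and 18.2% in 5xFAD-P522R. Disease-associated nuclei made up 5.48% and 18.9% of microglia in 5xFAD, 3.99% and 5.996% in 5xFAD-M28L and 22.0% and 18.6% in 5xFAD-P522R. The 5xFAD libraries therefore stood apart from each other, replicate 2 with mostly homeostatic nuclei, while both 5xFAD-P522R libraries were high in the disease-associated state and both 5xFAD-M28L libraries low. Each state's Csf1r level, pooled over the libraries, was also weighted by its share of a library's microglial UMIs, not of its nuclei. This gave 807 and 666 CPM for 5xFAD, 790 and 760 for 5xFAD-M28L and 654 and 561 for 5xFAD-P522R. The variants kept the order of the measured levels, but the state levels come from these same libraries. For 5xFAD replicate 2 the weighted 807 CPM lay above both 5xFAD-M28L values, while its measured 741.3 CPM lay below both (805.3 and 805.5). The part of the mix in the Csf1r level was not tested.

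Oligodendrocyte transcripts in microglial nuclei moved with the groups as well. All 12 oligodendrocyte markers were detected, and summed they stood at 1455 and 1599 CPM in 5xFAD, 1118 and 1350 CPM in 5xFAD-M28L and 2198 and 4954 CPM in 5xFAD-P522R. The 14 microglial markers summed to 7975 and 7149, 8133 and 8648, and 7144 and 6442 CPM in the same order. Border macrophage markers ranged from 109.5 to 185.8 CPM, with 9 of 10 detected and Pf4 at 0. The part of these transcripts in the level of Csf1r was not tested as such. Unnamed cluster 5 held 18.7% of the microglia of 5xFAD-P522R replicate 3 and 1.47% to 6.09% of those of the other libraries. Without it the raw level of Csf1r was 771 and 683 CPM in 5xFAD, 820 and 815 CPM in 5xFAD-M28L and 705 and 680 CPM in 5xFAD-P522R, and the log2 difference between the variants was -0.28 (edgeR adjusted p = 0.432).

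In border macrophages the receptor's normalised level was 569 and 645 CPM in 5xFAD, 644 and 558 in 5xFAD-M28L and 590 and 527 in 5xFAD-P522R. The groups overlapped, and the log2 differences were -0.01 for 5xFAD-M28L against 5xFAD, -0.12 for 5xFAD-P522R against 5xFAD and -0.11 between the variants (edgeR adjusted p = 0.999, 0.996 and 0.999). edgeR called 0 of 5581 genes in each contrast (0%), with 233, 220 and 235 at an unadjusted p under 0.05, and DESeq2 called 0. The T cell markers in this cluster summed to 365.3 and 620.9 CPM in 5xFAD, 766.4 and 1088 in 5xFAD-M28L and 905.8 and 569.9 in 5xFAD-P522R. Their part in these contrasts was not tested.

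The ligand Csf1 came mainly from oligodendrocyte-lineage and microglial nuclei. By level it was highest in unnamed cluster 4, at a mean of 132 CPM (range 113 to 143), and in microglia, at 123 CPM (79.2 to 163), which overlapped it. Mature oligodendrocytes followed at 87.2 CPM (71.2 to 92.6), fibroblasts at 61.9 (47.2 to 93.1), unnamed cluster 12 at 46.0, committed oligodendrocyte precursors at 38.5, astrocytes at 32.4 (26.2 to 37.3), endothelial nuclei at 30.1 (6.70 to 44.6) and border macrophages at 28.1 CPM. The level was lower in pericytes and smooth muscle at 14.4, OPCs at 11.9, inhibitory neurons at 9.45, excitatory neurons at 8.01 and striatal-type neurons at 6.81 CPM. Along the oligodendrocyte lineage the ligand was thus low in precursors and higher after differentiation, and the ranges of OPCs and mature oligodendrocytes did not overlap. Among the oligodendrocyte clusters the highest was cluster 26, 239 nuclei led by the interferon-induced genes Rsad2 and Ifit1, at 138 CPM (110 to 173), while the other 4 had means of 77.8 to 96.7 CPM.

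A Csf1 UMI was found in 26.7% of oligodendrocyte nuclei, 43.3% of those of cluster 4 and 26.1% of microglial nuclei, against 6.36% of inhibitory neurons at a median of 7430 UMIs. Thinned to 1500 UMIs the shares were 11.5%, 17.0%, 13.6% and 1.15%, with 268, 19, 130 and 11 nuclei left out. By amount, mature oligodendrocytes held 45.8% of all Csf1 UMIs on average (38.6% to 53.2%) from 36.9% to 48.9% of nuclei. Microglia held 20.2% (11.5% to 32.9%) and cluster 4 held 18.4% (15.8% to 20.7%), from 9.73% to 19.6% and 7.73% to 11.2% of nuclei. Astrocytes held 3.83% and OPCs 3.12%, the latter from 7.79% to 12.9% of nuclei. These shares describe sorted NeuN-negative nuclei and are not those of whole cortex.

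**Figure D3:**
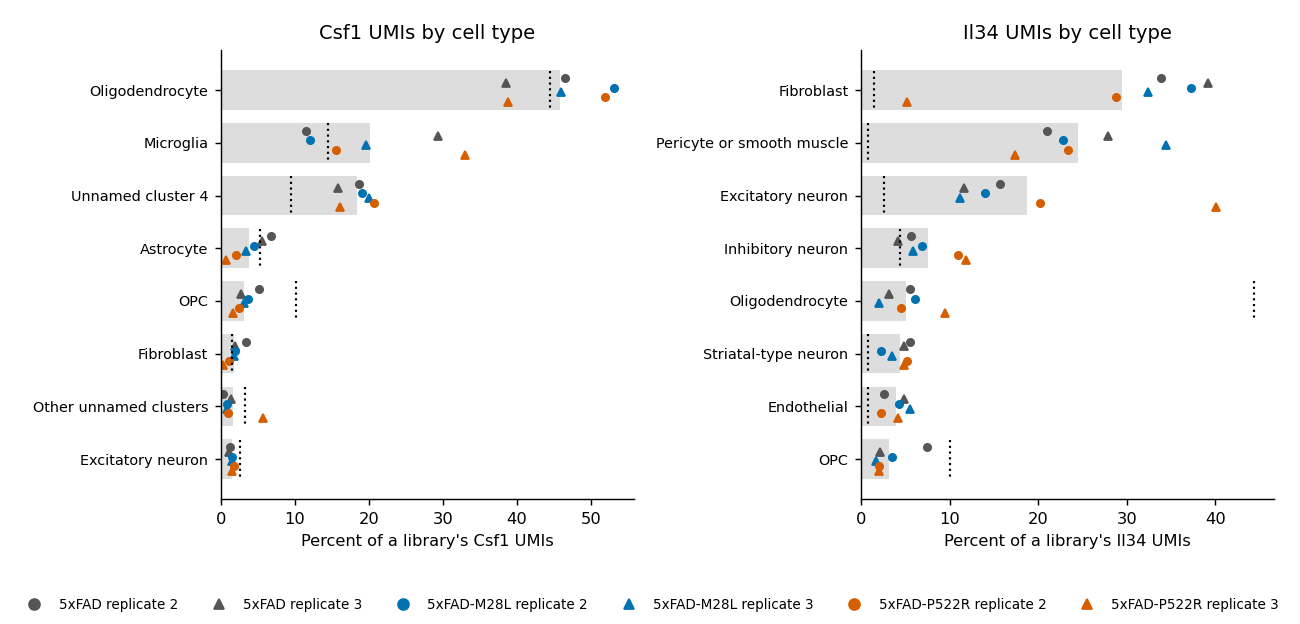
Share of all Csf1 and Il34 UMIs held by each cell type, in percent; grey bars are means over the 6 libraries, points single libraries coloured by genotype group, and the dotted line in each bar marks the mean percent of nuclei of that type. Oligodendrocytes hold 45.8% of Csf1 UMIs, close to their share of nuclei, whereas fibroblasts and pericytes hold 29.5% and 24.5% of Il34 UMIs from at most 2.15% and 1.07% of nuclei.

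Between homeostatic and disease-associated microglia Csf1 went the opposite way to its receptor, while unnamed cluster 5, lowest in the receptor, was intermediate in the ligand. It was highest in disease-associated microglia, at 544.1 and 295.7 CPM in 5xFAD, 223.8 and 333.4 CPM in 5xFAD-M28L and 339.6 and 426.6 CPM in 5xFAD-P522R, a mean of 361 CPM. Chemokine microglia had 182 CPM (149 to 202), below all 6 of those values. The disease-associated values rest on 74 and 337 nuclei in 5xFAD, 46 and 87 in 5xFAD-M28L and 206 and 332 in 5xFAD-P522R. Unnamed cluster 5 had 120 CPM (67.1 to 174), the interferon-responsive state 79.3 (43.1 to 110), unnamed cluster 2 54.7 (37.7 to 74.4) and homeostatic microglia 13.02 CPM (5.72 to 22.0). The ranges of the last 2 did not overlap. A Csf1 UMI was found in 62.2% of disease-associated and 3.67% of homeostatic nuclei, and in 36.2% and 1.52% after thinning, with 5 and 44 nuclei left out. Homeostatic microglia, with the most receptor transcript, thus had the least ligand transcript of these states, and the disease-associated state had the most ligand.

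Csf1 in microglia did not pass the test between genotypes. Its normalised level was 78.5 and 139 CPM in 5xFAD, 87.7 and 120 in 5xFAD-M28L and 149 and 169 in 5xFAD-P522R, so that both 5xFAD-P522R libraries lay above the other 4, whose groups overlapped. The log2 difference was -0.08 for 5xFAD-M28L against 5xFAD, 0.54 for 5xFAD-P522R against 5xFAD and 0.62 (SE 0.26) between the variants, with edgeR adjusted p = 0.9797, 0.482 and 0.359. Leaving out 5xFAD replicate 2 brought the second to 0.19, leaving out 5xFAD replicate 3 brought it to 1.02, and the last was 0.41 and 0.86 without 5xFAD-M28L replicate 2 and 3, none past the threshold. Weighting each state's pooled Csf1 level by its share of a library's microglial UMIs gave 74.3 and 160 CPM for 5xFAD, 90.3 and 107 for 5xFAD-M28L and 158 and 152 for 5xFAD-P522R. The low 5xFAD library was again the one rich in homeostatic nuclei, and the state levels come from these same libraries. With no filter on low counts the log2 differences of 5xFAD-P522R were 0.54 against 5xFAD and 0.61 against 5xFAD-M28L, with edgeR adjusted p = 0.00462 and 5.47e-04.

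Inside the states Csf1 did not pass the test in any contrast either. Between the variants the log2 difference, 5xFAD-P522R against 5xFAD-M28L, was -0.17 in chemokine microglia, 0.39 in disease-associated microglia, 0.52 in homeostatic microglia, -0.10 in the interferon-responsive state and -0.76 in unnamed cluster 2 (edgeR adjusted p = 0.834). Its direction was therefore not shared by the states. For 5xFAD-M28L against 5xFAD edgeR called 0.327% of genes in chemokine, 0.424% in disease-associated, 0.00937% in homeostatic and 0.356% in interferon-responsive microglia, and Csf1 was in none of these sets. For 5xFAD-P522R against 5xFAD it called 0.0385%, 0.0353%, 0% and 0.0712% in the same order, again without Csf1. The 0 of 10672 genes in homeostatic microglia stood beside 926 at an unadjusted p under 0.05 and 5 called by DESeq2. In disease-associated microglia the Csf1 difference for 5xFAD-M28L against 5xFAD was -0.40, and without 5xFAD replicate 3 it was -0.94 with edgeR adjusted p = 0.0287, with 5xFAD replicate 2 (544.1 CPM) then the only 5xFAD library.

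**Figure D4:**
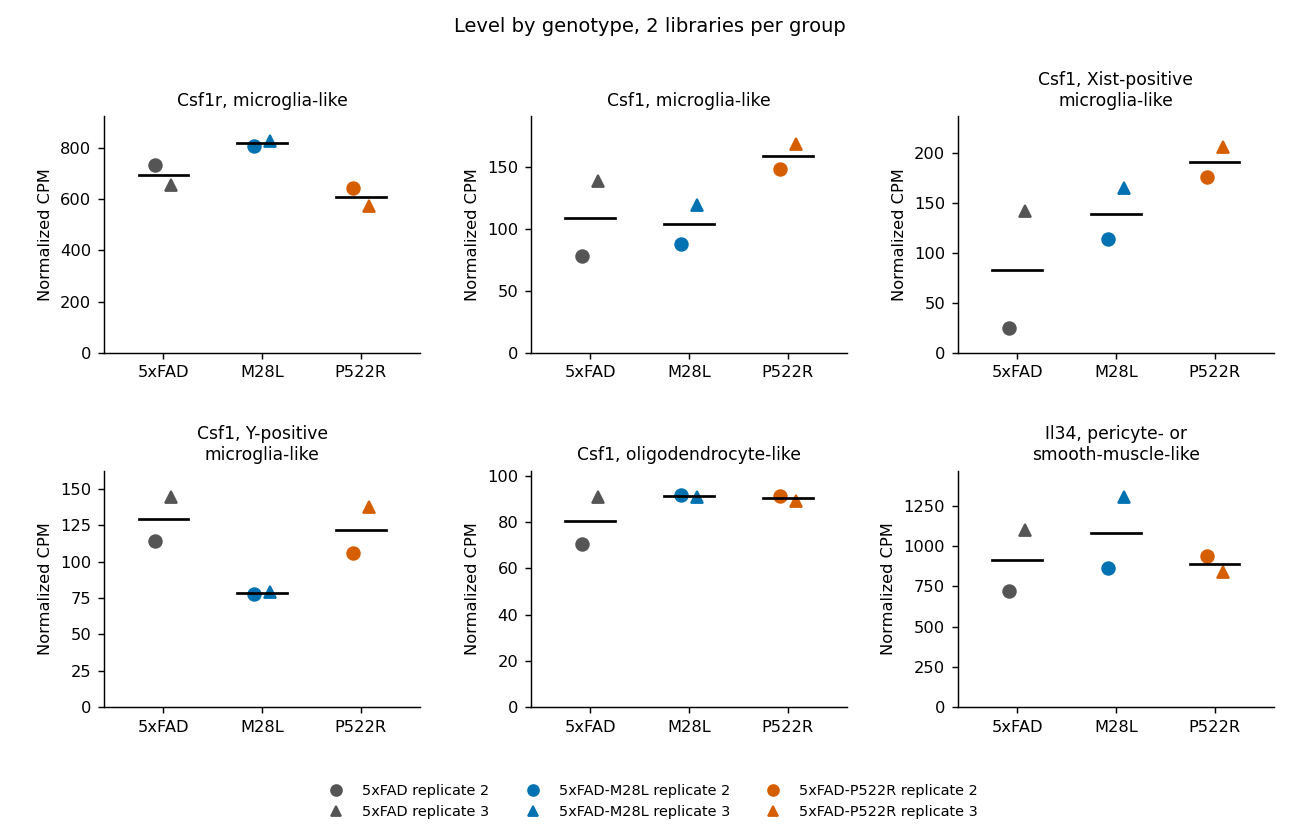
Normalised level by genotype (CPM) of Csf1r in microglia, Csf1 in microglia (all and by sex) and oligodendrocytes, and Il34 in pericytes and smooth muscle. Each point is 1 library and black bars are group means. For Csf1r in microglia the 5xFAD-M28L libraries (810 and 826 CPM) lie above and the 5xFAD-P522R libraries (643 and 575 CPM) below those of 5xFAD, with no contrast past the threshold.

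The sexes pooled in each library could be separated in part by their transcripts. Of the microglial nuclei, 4001 had an Xist UMI and none from 4 Y-linked genes, and 2389 had the reverse. The first kind made up 46.8% to 74.9% of the nuclei so assigned. In Xist-positive microglia the normalised level of Csf1 was 24.4 and 142 CPM in 5xFAD, 114 and 165 in 5xFAD-M28L and 176 and 206 in 5xFAD-P522R. In Y-positive microglia it was 114 and 144 CPM in 5xFAD, 77.8 and 78.8 in 5xFAD-M28L and 106 and 137 in 5xFAD-P522R. Both 5xFAD-M28L libraries were thus the lowest in Y-positive nuclei and not in Xist-positive ones, where 5xFAD replicate 2 stood alone at the bottom. That library was also the one with 61.1% homeostatic microglia, the state with the least Csf1. The mix of states was not taken by sex, so sex and state cannot be told apart in these sums.

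With all 6 libraries, the low-count filter and no replicate block, none of these contrasts of Csf1 passed the test. In Y-positive microglia the log2 difference was -0.72 (SE 0.17) for 5xFAD-M28L against 5xFAD (edgeR adjusted p = 0.158), -0.07 for 5xFAD-P522R against 5xFAD (adjusted p = 0.974) and 0.66 (SE 0.18) between the variants (adjusted p = 0.0506), where 0.194%, 2.19% and 4.32% of 11346 genes were called. The first passed without 5xFAD replicate 2 (-0.88, edgeR adjusted p = 0.0474), and the last passed without 5xFAD replicate 2, 5xFAD replicate 3 or 5xFAD-P522R replicate 2 (adjusted p = 0.0349, 0.0438 and 0.0157). With the replicate number as a block both passed (-0.71 and 0.63, edgeR adjusted p = 0.0136 and 0.011). In Xist-positive microglia it was 0.66, 1.11 and 0.45 (edgeR adjusted p = 0.683, 0.566 and 0.906), where edgeR called 0 of 12148 genes (0%), with 1405, 1160 and 854 at an unadjusted p under 0.05, and DESeq2 called 16, 4 and 1. The M28L difference rested on 1 library: without 5xFAD replicate 2 it was -0.01, and without 5xFAD replicate 3 it was 2.54 with edgeR adjusted p = 2.885e-04. Likewise 5xFAD-P522R against 5xFAD stood at 2.98 without 5xFAD replicate 3 (edgeR adjusted p = 7.108e-05). In a test added after the data were seen, the Csf1 difference of 5xFAD-M28L from 5xFAD was higher in Xist-positive than in Y-positive nuclei by 1.59 on the log2 scale (SE 0.45, edgeR adjusted p = 0.141). That of 5xFAD-P522R from 5xFAD was higher by 1.45 (adjusted p = 0.321), and both share the 5xFAD libraries, replicate 2 at 24.4 CPM included. Between the variants the same value was -0.14 (adjusted p = 0.983). In these values as well, sex and the mix of states cannot be told apart.

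Averaged over genotypes, Csf1 differed by 0.22 on the log2 scale between Xist-positive and Y-positive microglia (SE 0.28, edgeR adjusted p = 0.877) and by 0.55 without 5xFAD replicate 2 (adjusted p = 0.022). The fit of all libraries called 0.0585% of 11971 genes, and the one without that library 296 of 11779. Csf1r differed by 0.02 (edgeR adjusted p = 0.960). The receptor was 727 and 687 CPM in 5xFAD, 857 and 835 in 5xFAD-M28L and 666 and 612 in 5xFAD-P522R in Xist-positive nuclei. In Y-positive nuclei it was 749 and 621, 801 and 821, and 640 and 649 CPM in the same order. In both sexes the 5xFAD-M28L libraries lay above those of 5xFAD-P522R. For 5xFAD-P522R against 5xFAD-M28L the log2 difference was -0.40 in Xist-positive and -0.33 in Y-positive nuclei, and neither passed the test (edgeR adjusted p = 0.689 and 0.168). In Xist-positive nuclei this difference did pass when either 5xFAD library was left out (adjusted p = 0.0429 without replicate 2 and 0.0478 without replicate 3).

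No contrast of Csf1 passed the test in its other sources either. In oligodendrocytes its normalised level was 70.4 and 90.6 CPM in 5xFAD, 91.7 and 90.9 in 5xFAD-M28L and 91.2 and 89.2 in 5xFAD-P522R, that is 5xFAD replicate 2 stood below the other 5 libraries. The log2 differences were 0.18, 0.17 and -0.02 for 5xFAD-M28L against 5xFAD, 5xFAD-P522R against 5xFAD and 5xFAD-P522R against 5xFAD-M28L (edgeR adjusted p = 0.515, 0.589 and 0.994, with 0%, 0.0326% and 0.0196% of 15341 genes called). In the first of these contrasts 1983 genes had an unadjusted p under 0.05 and DESeq2 called 107. In cluster 4 Csf1 was 114 and 137 CPM, 143 and 137 CPM, and 130 and 137 CPM in the same order of groups. Its log2 differences were 0.15, 0.08 and -0.07 (edgeR adjusted p = 0.618, 0.856 and 0.965, with 0.0081%, 0.0081% and 0.0162% of genes called).

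Astrocytes had 26.4 and 33.8 CPM of Csf1 in 5xFAD, 32.7 and 33.6 in 5xFAD-M28L and 31.8 and 36.7 in 5xFAD-P522R. OPCs had 11.1 and 11.5, 12.04 and 15.4, and 10.4 and 11.1 CPM, and fibroblasts 72.7 and 58.6, 51.5 and 96.1, and 52.5 and 48.6 CPM. The groups overlapped in astrocytes. In fibroblasts both 5xFAD-P522R libraries lay below both of 5xFAD, and in OPCs both 5xFAD-M28L libraries lay above the other 4. For 5xFAD-M28L against 5xFAD, 5xFAD-P522R against 5xFAD and 5xFAD-P522R against 5xFAD-M28L the log2 differences were 0.14, 0.16 and 0.02 in astrocytes. They were 0.27, -0.07 and -0.34 in OPCs and 0.10, -0.35 and -0.45 in fibroblasts. edgeR called 0 of 13178 genes in astrocytes, 0 of 14675 in OPCs and 0 of 10374 in fibroblasts in each contrast (0%). At an unadjusted p under 0.05 there were 787 to 1067 genes in astrocytes, 845 to 1759 in OPCs and 328 to 550 in fibroblasts, and DESeq2 called 10 to 15, 8 to 61 and 0.

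The second ligand, Il34, had its highest level in pericytes and smooth muscle in these nuclei. In pericytes and smooth muscle (499 nuclei) it stood at 655.7 and 998.9 CPM in 5xFAD, 799.7 and 1216 CPM in 5xFAD-M28L and 884.1 and 791.2 CPM in 5xFAD-P522R, a mean of 891 ± 196 CPM (SD, n = 6). An Il34 UMI was found in 84.4% of these nuclei (65.9% thinned, 18 left out) at a median of 3210 UMIs, against 0.532% of microglia (0.229% thinned, 130 left out) at 3560. Pericytes, which wrap capillaries, and smooth muscle cells of arterioles were not separated by the clusters. Of these nuclei, 443 carried pericyte markers only, with 889 CPM (659 to 1155), 53 carried both kinds of marker, with 848 CPM, and 1 carried smooth muscle markers only.

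Fibroblasts (924 nuclei) came next at 374 CPM (160 to 510), below the range of pericytes and smooth muscle, and the 2 fibroblast clusters differed. Cluster 11 (710 nuclei) had 530 CPM of Il34 (264 to 683) and cluster 27 (214 nuclei) 15.8 CPM. Endothelial nuclei had 108 CPM (47.9 to 181). Neurons left after the sort were lower, at 30.2 CPM in striatal-type, 28.4 (23.8 to 35.1) in excitatory and 18.3 (11.6 to 24.0) in inhibitory neurons. Glia and myeloid nuclei were lowest, with 3.66 CPM in OPCs, 2.87 in oligodendrocytes, 1.51 in microglia and 1.24 in astrocytes. Neighbours in this order whose ranges did not overlap were pericytes and fibroblasts, endothelial and striatal-type nuclei, and inhibitory neurons and OPCs.

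By amount, fibroblasts held 29.5% of Il34 UMIs on average (5.18% to 39.1%) from 0.374% to 2.15% of nuclei, and pericytes and smooth muscle held 24.5% (17.4% to 34.4%) from 0.364% to 1.07% of nuclei. Excitatory neurons held 18.8% (11.1% to 40.1%), inhibitory neurons 7.59%, oligodendrocytes 5.11%, striatal-type neurons 4.36% and endothelial nuclei 3.94%. Because the sort removed most neurons, the neuronal shares are those of the neurons that escaped it. An Il34 UMI was found in 44.3% of excitatory neurons, whose median depth was 23260 UMIs, and in 4.09% after thinning (4 left out), against 4.79% of endothelial nuclei (16 left out).

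Il34 did not pass the test between genotypes in any type. In pericytes and smooth muscle its normalised level was 725 and 1101 CPM in 5xFAD, 862 and 1306 in 5xFAD-M28L and 941 and 843 in 5xFAD-P522R. The groups overlapped, and the log2 differences were 0.24 for 5xFAD-M28L against 5xFAD, -0.03 for 5xFAD-P522R against 5xFAD and -0.27 between the variants (edgeR adjusted p = 1, 0.998 and 0.881, with 0.0163%, 0.114% and 0.147% of 6141 genes called). In fibroblasts it was 326 and 443 CPM, 362 and 527 CPM, and 466 and 165 CPM in the same order, with 5xFAD-P522R replicate 3 far below the others. That library had only 36 fibroblast nuclei, 25 of them from cluster 11, with 34 Il34 UMIs in all. The part of the mix of the 2 clusters in its level was not tested. The log2 difference between the variants was -0.36 in fibroblasts, and from -1.45 to 0.06 when single libraries were left out.

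Endothelial nuclei had 49.9 and 130 CPM of Il34 in 5xFAD, 109 and 125 in 5xFAD-M28L and 81.4 and 185 in 5xFAD-P522R, and the groups overlapped (0.0244%, 0.0244% and 0% of 8209 genes called by edgeR). The 11 markers of pericytes and smooth muscle, the type highest in Il34, summed in endothelial nuclei to 2302 and 4141 CPM, 2585 and 3763 CPM, and 2889 and 4820 CPM in the same order, higher in the library with more Il34 in each group. Their part in the Il34 level was not tested. Between the variants 485 of the genes tested had an unadjusted p under 0.05 and DESeq2 called 0. Excitatory neurons had 27.9 and 30.6, 23.6 and 28.1, and 25.9 and 34.9 CPM, and the groups overlapped. Inhibitory neurons had 11.9 and 15.975 CPM in 5xFAD, 22.6 and 14.5 CPM in 5xFAD-M28L and 24.4 and 20.4 CPM in 5xFAD-P522R, both libraries of the last group above both of 5xFAD, with a log2 difference of 0.71 (edgeR adjusted p = 0.551). edgeR called 0 of 14772 genes in excitatory neurons and 0 of 13766 in inhibitory neurons in each contrast (0%). At an unadjusted p under 0.05 there were 594 to 1668 and 480 to 1216 genes, and DESeq2 called 8 to 34 and 0 to 13.

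Counting all types and states, Csf1r was tested in 17, Csf1 in 19 and Il34 in 9, each in 3 contrasts. The lowest edgeR adjusted p was 0.168 for Csf1r, 0.0506 for Csf1 and 0.387 for Il34.

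Some genes followed the 3 members closely over 12 cell types. Among 11563 genes, the 5 with a pattern most like that of Csf1r were Cyth4 (Pearson r = 0.997), Fgd2 (0.996), Fcrls (0.995), A630001G21Rik (0.995) and Rhoh (0.994). Fcrls is an Fc-receptor-like gene of microglia and was among the markers used to name them. For Csf1 they were Trp53 (r = 0.922), which encodes the tumour suppressor p53, Dcaf8 (0.916), Ufd1 (0.902), Hbp1 (0.901) and Brap (0.899). For Il34 they were Col8a1 (r = 0.961), which encodes a collagen chain of vessel walls, Dcdc2a (0.946), Slc5a5 (0.941), Mprip (0.940) and Efcc1 (0.939). These correlations are over means of the same 6 libraries and describe the levels across types, with no test.

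Beyond the members, 48 of 54 genes listed for the pathway could be tested in microglia, and edgeR called 0 of them in each contrast. Of these genes 34 were higher and 14 lower in 5xFAD-M28L than in 5xFAD, with a median log2 difference of 0.12 beside -0.00468 over all genes, 17 were higher and 31 lower in 5xFAD-P522R than in 5xFAD (median -0.07 beside 0.00738), and 13 were higher and 35 lower in 5xFAD-P522R than in 5xFAD-M28L (median -0.16 beside -0.00177). At an unadjusted p under 0.05 there were 8, 5 and 15 of the 48, beside 695, 1566 and 1916 of all 13849 genes. The summed microglial markers were also lower in 5xFAD-P522R (7144 and 6442 CPM) than in 5xFAD-M28L (8133 and 8648). The summed oligodendrocyte markers were higher (2198 and 4954 against 1118 and 1350 CPM). A general shift of microglial genes and one of the pathway list cannot be told apart by these medians.

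The kinases and adaptors that carry the receptor's signal had 20 tested members, of which 4 were higher and 16 lower in 5xFAD-P522R than in 5xFAD-M28L, with a median of -0.24. The part of the marker shift in this median was not tested. The most abundant in microglia were Gab2, a docking adaptor, at a mean normalised level of 1692 CPM and a log2 difference of -0.16 between the variants (edgeR adjusted p = 0.561), and Lyn, a SRC-family kinase, at 1439 CPM and -0.39 (adjusted p = 0.173). Pik3r1, a regulatory subunit of PI3-kinase, stood at 523 CPM with -0.33 (edgeR adjusted p = 0.253). Plcg2, the gene that carries the variants, stood at 420 CPM, with group means of 390, 470 and 399 CPM in 5xFAD, 5xFAD-M28L and 5xFAD-P522R. Its log2 differences were 0.27, 0.03 and -0.24 (edgeR adjusted p = 0.899, 0.941 and 0.427), and a coding variant need not alter its own transcript.

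Of the negative regulators, Inpp5d, which encodes the lipid phosphatase SHIP1, stood at 2499 CPM, with group means of 2425, 2944 and 2128 CPM and a log2 difference of -0.47 between the variants (edgeR adjusted p = 0.173). The ubiquitin ligase genes Cbl and Cblb stood at 301 and 117 CPM and the phosphatase gene Ptpn6 at 67.6 CPM. The sheddases Adam10 and Adam17, of which the latter can cut the receptor from the cell surface, stood at 269 and 207 CPM with -0.12 and -0.16. The transcription factors Runx1 (1308 CPM), Fli1 (1058), Irf8 (470) and Spi1, which encodes PU.1 (207), include activators of the receptor gene, and between the variants Runx1 differed by -0.31 and Spi1 by -0.10.

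Among growth and survival genes the anti-apoptotic Bcl2l1 stood at 309 CPM and Bcl2 at 169 CPM. Bcl2 had group means of 153, 129 and 226 CPM and a log2 difference of 0.81 between the variants, opposite in sign to the receptor (edgeR adjusted p = 0.198). Mcl1 stood at 56.7 CPM and Ccnd1, which encodes cyclin D1, at 15.9 CPM. Trem2 and its adaptor gene Tyrobp, partners of CSF1R signalling, stood at 154 and 77.5 CPM and differed by 0.03 and -0.04 between the variants. Ptprz1, which encodes a second receptor for IL-34, was a gene of OPCs (mean 3009 CPM) and astrocytes (2182 CPM) and stood at 57.2 CPM in microglia, and Sdc1, a syndecan that also binds IL-34, did not exceed 1.90 CPM in any type.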

How the data were processed

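The authors deposited gene counts (UMIs per gene and nucleus, mm10) for 6 libraries, made with Cell Ranger 6.1.2 per the submitters' processing notes, although the file header of 5xFAD-P522R replicate 3 names 5.0.1. Whether introns were counted is not given in the sources used here. The deposited counts had barcodes with at least 500 UMIs.

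Filters of 500 UMIs and 300 genes as minimum and 5% mitochondrial UMIs as maximum left 62651 of 62687 nuclei, and 2566 were removed as doublets called by Scrublet in scanpy 1.11.5. A common Scrublet threshold of 0.3109 was used, since the automatic one marked about 0.01% of nuclei in both 5xFAD-P522R libraries. The common one marked 3.67% to 4.68% per library. Nuclei were clustered by the Leiden method at resolution 1 on 2000 variable genes and 30 principal components, without the 3 members, and microglia again at resolution 0.5 on 1000 genes. A cluster was named where at least 3 markers of a type were higher in it (by 1 on the log2 scale, 0.58 for microglial states) and made up a minimum share of that type's list (40%, 25% for neurons, 30% for states). It stayed unnamed if another type had more markers among its 10 leading genes, as in cluster 4, or if at least 40% were called doublets. Low UMIs with no own marker leading, or astrocyte markers beside ependymal ones, also left a cluster unnamed. The members, markers and pathway list were chosen with earlier results of these data known.

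Counts were summed per library and type with at least 20 nuclei in every library, filtered at a minimum count of 10 and tested across the 6 libraries with edgeR 4.0.16 (TMM, quasi-likelihood, two-sided, all 3 groups in 1 fit), with Benjamini-Hochberg adjustment over every gene tested in a contrast and 0.05 as the threshold. The scripts were tested on simulated data. Alternatives were DESeq2 1.42.0, no filter, doublets kept, a minimum of 1000 UMIs, resolution 2, leaving out each library and a replicate block. Named were the members, up to 4 most abundant pathway genes per role, and the 5 genes nearest in pattern to each member among those at 20 CPM or more in a type. A pathway gene that this rule names is not reported here. Shares of nuclei with a UMI cover counting only and were also taken after thinning each nucleus to 1500 UMIs. UMI totals were 53326947 to 72288942 per library.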

Additional observations from a re-analysis of the deposited data

Results flagged for a closer look

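For Csf1r between 5xFAD-P522R and 5xFAD-M28L, 2 microglial states had differences of opposite sign with no overlap of the normalised levels in either. In interferon-responsive microglia both 5xFAD-P522R libraries (910 and 813 CPM) lay below both 5xFAD-M28L libraries (947 and 918 CPM), although their levels before normalisation overlapped (log2 difference -0.13, edgeR adjusted p = 0.953), and in unnamed cluster 2 both lay above (0.02, adjusted p = 0.998). Neither passed the test, and the difference between the states was not tested. With 2 libraries a group, levels can separate at a difference as small as the 0.02 of unnamed cluster 2.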

How the results depend on the processing

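Filtering changed the most calls. With no filter on low counts edgeR called 134, 1122 and 1255 of 22451 genes in microglia for 5xFAD-M28L against 5xFAD, 5xFAD-P522R against 5xFAD and 5xFAD-P522R against 5xFAD-M28L, in place of 0, and the microglial differences of Csf1r (-0.43) and Csf1 (0.54 against 5xFAD and 0.61 between the variants) passed. So did 4 of the 6 Csf1 differences in Xist-positive and Y-positive microglia, with the same direction, but not 5xFAD-P522R against 5xFAD-M28L in Xist-positive nuclei (adjusted p = 0.427) or 5xFAD-P522R against 5xFAD in Y-positive nuclei (adjusted p = 0.965). The same setting turned 4 small differences, Csf1 in astrocytes between the variants (-0.015), Il34 in endothelial nuclei between the variants (-0.019), and Csf1r and Csf1 in disease-associated microglia for 5xFAD-P522R against 5xFAD (0.011 and 0.019). Of the pathway list, 4 and 11 genes then passed in the contrasts of 5xFAD-P522R with 5xFAD and 5xFAD-M28L, beside 1 and 2 with DESeq2, 1 and 1 with the replicate block, and 1 and 2 without 5xFAD-P522R replicate 2. The cause was not tested.

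With called doublets kept, Csf1r in border macrophages for 5xFAD-M28L against 5xFAD turned to 0.056, Csf1 in OPCs for 5xFAD-P522R against 5xFAD to 0.16 and Il34 in pericytes for that contrast to 0.12. Without unnamed microglial cluster 5, a setting chosen after the data were seen, Csf1r and Csf1 in Y-positive microglia for 5xFAD-P522R against 5xFAD turned to 0.054 and 0.014. At resolution 2 one homeostatic cluster of 2628 nuclei stayed unnamed, so that the microglia there lacked it. Over all results and settings, 671 values for the main comparisons and 348 others were unchanged. For differences this means the same direction and side of the threshold, and for pathway counts and mean levels a value within a set margin. Of the main values 44 turned, 6 gained a call and 8 counts moved, and of the others 24 turned and 13 gained a call. No member passed in the main setting, so keeping the side of the threshold says little.

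The labels number the libraries 2 and 3 in each group, but nothing states a shared litter or day. Deviations from the group means correlated between same-numbered libraries at 0.16 to 0.43 in microglia, 0.46 to 0.58 in oligodendrocytes, 0.38 to 0.49 in OPCs and 0.13 to 0.38 in astrocytes. With the replicate number as a block edgeR called 1, 99 and 261 genes in microglia. The replicate block turned Il34 in pericytes for 5xFAD-P522R against 5xFAD to 0.027, and Csf1 in Y-positive microglia passed for 5xFAD-M28L against 5xFAD (-0.71, adjusted p = 0.0136) and between the variants (0.63, adjusted p = 0.011). It changed no other call of a member.

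Leaving out each library in turn turned or lifted past the threshold the following log2 differences, given as the lowest and highest value. For 5xFAD-M28L against 5xFAD, Csf1r ran from -0.13 to 0.071 in border macrophages, -0.0019 to 0.23 in homeostatic microglia and -0.0041 to 0.11 in unnamed cluster 2. For 5xFAD-M28L against 5xFAD, Csf1 ran from -0.42 to 0.40 in microglia, -0.027 to 0.33 in astrocytes, -0.34 to 0.55 in fibroblasts, -0.94 to -0.023 in disease-associated microglia, -0.55 to 0.97 in homeostatic microglia, -0.16 to 0.63 in unnamed cluster 2, -0.012 to 2.54 in Xist-positive microglia and -0.88 to -0.54 in Y-positive microglia. For 5xFAD-M28L against 5xFAD, Il34 ran from -0.088 to 0.59 in pericytes, -0.075 to 0.46 in fibroblasts and -0.16 to 1.23 in endothelial nuclei. For 5xFAD-P522R against 5xFAD, Csf1r ran from -0.066 to 0.16 in homeostatic microglia, -0.23 to 0.047 in Y-positive microglia, -0.12 to 0.12 in disease-associated microglia and -0.11 to 0.14 in interferon-responsive microglia. For 5xFAD-P522R against 5xFAD, Csf1 ran from -0.0049 to 0.36 in oligodendrocytes, -0.047 to 0.23 in cluster 4, -0.018 to 0.34 in astrocytes, -0.13 to 0.26 in chemokine microglia, -0.54 to 0.38 in disease-associated microglia, -0.030 to 1.49 in homeostatic microglia, -0.17 to 0.98 in interferon-responsive microglia, 0.43 to 2.98 in Xist-positive microglia and -0.31 to 0.10 in Y-positive microglia. For 5xFAD-P522R against 5xFAD, Il34 ran from -0.31 to 0.29 in pericytes, -1.25 to 0.27 in fibroblasts, -0.14 to 1.28 in endothelial nuclei and -0.17 to 0.26 in excitatory neurons. For 5xFAD-P522R against 5xFAD-M28L, Csf1r ran from -0.20 to 0.0043 in border macrophages, -0.47 to -0.35 in Xist-positive microglia and -0.22 to 0.018 in chemokine microglia. For 5xFAD-P522R against 5xFAD-M28L, Csf1 ran from -0.061 to 0.13 in astrocytes, -0.60 to 0.21 in interferon-responsive microglia and 0.41 to 0.81 in Y-positive microglia. For 5xFAD-P522R against 5xFAD-M28L, Il34 ran from -0.57 to 0.050 in pericytes, -1.45 to 0.064 in fibroblasts, -0.54 to 0.62 in endothelial nuclei and -0.0041 to 0.63 in inhibitory neurons. Between Xist-positive and Y-positive nuclei Csf1r ran from -0.0037 to 0.049 in microglia. Between Xist-positive and Y-positive nuclei Csf1 ran from 0.044 to 0.55 in microglia. The calls gained this way are named with their libraries in the results above, and 2 libraries a group limit every one of these contrasts.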
